A study of Homo sapiens with 8 samples.

Results

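TNFRSF13B, TNFRSF13C, TNFRSF17, CD40, CD70 and CD27 are the receptors and the ligand of the tumour necrosis factor (TNF) family through which B cells receive survival and costimulatory signals. Peaks of MED1, SMC1A and NIPBL were taken from 6 windows of the hg19 build drawn around these genes: chromosome 17 from 16810001 to 16930000, chromosome 22 from 42300001 to 42345000, chromosome 16 from 12030001 to 12090000, chromosome 20 from 44715001 to 44790000, chromosome 19 from 6560001 to 6620000 and chromosome 12 from 6530001 to 6585000. The windows are 45 to 120 kb long and 415 kb in all. They held 387 of the 224923 peaks of the 6 deposited lists. The rule for a member uses position alone, but the genes and windows were chosen with earlier results of these data known.

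All libraries came from untreated GM12878 cells, an established lymphoblastoid cell line, that is, B lymphocytes immortalised with Epstein-Barr virus. ChIP-seq, in which DNA bound to a crosslinked protein is recovered with an antibody and sequenced, was done with 2 libraries each for MED1, SMC1A and NIPBL. A pool of 2 whole cell extract libraries was the control of every list. MED1 is a subunit of Mediator, which links enhancer-bound factors to RNA polymerase II. SMC1A belongs to cohesin, a ring that holds DNA strands together, and NIPBL loads cohesin onto DNA. The labels do not give the culture of each replicate, and p-values measure the spread between libraries, which can be purely technical.

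BAFF is a ligand of 3 of these receptors: TACI (TNFRSF13B), the BAFF receptor (TNFRSF13C) and BCMA (TNFRSF17). APRIL is a ligand of TACI and BCMA. The BAFF receptor keeps resting B cells alive, TACI regulates antibody responses, and BCMA supports plasma cells. CD40 receives T cell help through CD40 ligand, and its signal is imitated by the viral protein LMP1 in cells immortalised with Epstein-Barr virus. CD70 is the ligand of CD27, a marker of memory B cells, and CD70 appears on activated lymphocytes. These receptors signal through TRAF adaptors, with NF-kappaB as a main outcome.

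RefSeq promoter sequences of build GRCh38.p14 were at hand for TNFRSF13B and CD27 and are shown so that the DNA just before these genes can be read. TNFRSF13C, TNFRSF17, CD40 and CD70 had no entry. Each sequence is the 250 bases before the gene start on the gene's strand, at chr17:16972119-16972368 on the minus strand and chr12:6443642-6443891 on the plus strand. These GRCh38 positions cannot be set beside the hg19 peak positions. Capitals mark matches on either strand to GGG, any 5 bases and CC, the outline of an NF-kappaB motif, and to CAGGTG, an E-box motif.
TNFRSF13B: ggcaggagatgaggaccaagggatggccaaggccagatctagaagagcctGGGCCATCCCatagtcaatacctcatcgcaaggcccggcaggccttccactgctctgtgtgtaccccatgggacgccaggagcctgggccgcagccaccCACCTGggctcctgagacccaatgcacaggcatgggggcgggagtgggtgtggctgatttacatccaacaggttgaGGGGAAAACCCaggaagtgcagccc
CD27: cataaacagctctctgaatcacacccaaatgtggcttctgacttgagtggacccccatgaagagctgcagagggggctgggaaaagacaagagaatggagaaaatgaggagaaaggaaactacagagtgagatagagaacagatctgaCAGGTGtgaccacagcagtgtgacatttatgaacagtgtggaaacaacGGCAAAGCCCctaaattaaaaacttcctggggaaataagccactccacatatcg
Both promoters held the NF-kappaB outline, as did 54.4% of the 35116 promoters of the same length, and overlapping matches to it form the last run of capitals in TNFRSF13B. Both also held CAGGTG or its complement, as did 17.5% of all promoters. GGAA, any 2 bases and GAAA, the outline of a joint ETS and IRF motif, was in neither and was in 2.41% of all promoters. The motifs were chosen with the sequences in view, and a match of letters is not a measured binding site.

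Peaks of all 3 proteins were dense around the 6 genes. The MED1 libraries had 61 and 80 peaks in the windows (replicates 1 and 2), the SMC1A libraries 66 and 82, and the NIPBL libraries 52 and 46. Over the 415 kb this was 14.7 and 19.3 MED1 peaks per 100 kb, against 0.617 and 1.53 over the whole lists. SMC1A had 15.9 and 19.8 per 100 kb in the windows, against 1.92 and 2.32 over the whole lists. NIPBL had 12.5 and 11.1, against 0.729 and 0.522. The windows were thus 23.8 and 12.6 times as dense as the whole MED1 lists, 8.27 and 8.51 times for SMC1A, and 17.2 and 21.2 times for NIPBL. Whole-list densities include stretches without genes, so these ratios describe gene-bearing windows against the chromosomes at large.

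**Figure D1:**
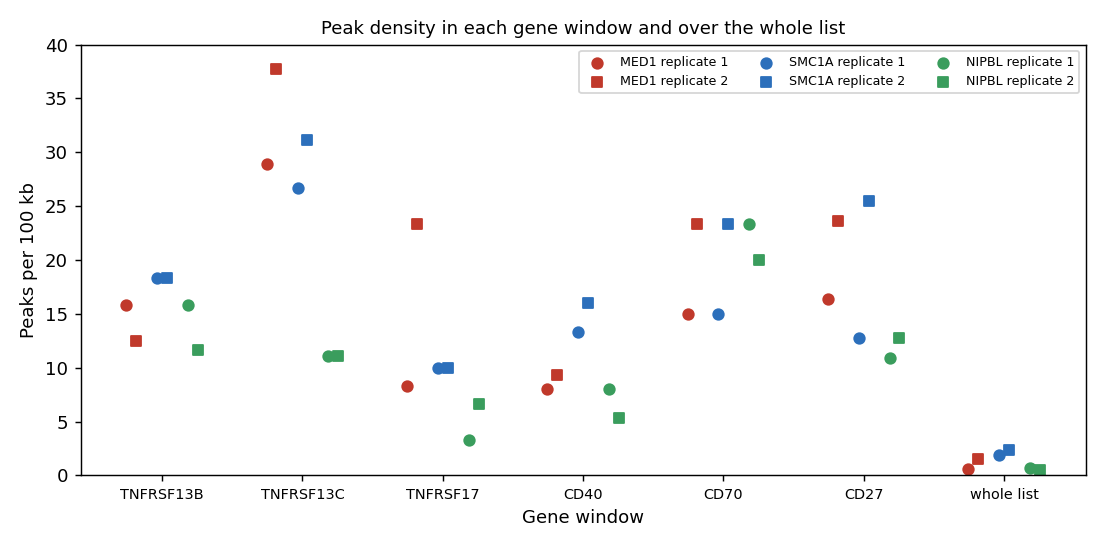
Peaks per 100 kb (y axis) in each gene window and over each whole list (x axis), with 1 point per library, circles for replicate 1 and squares for replicate 2. Every window point lies above the whole-list points, and the TNFRSF13C window reaches 37.8 MED1 peaks per 100 kb in replicate 2.

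The factors could not be ranked by their number of peaks. MED1 averaged 70.5 ± 13.4 peaks in the windows and NIPBL 49.0 ± 4.24 (SD, n = 2 each), a difference of 21.5 (two-sided exact permutation p = 0.33, adjusted over 6 comparisons 0.5). SMC1A averaged 74.0 ± 11.3 peaks, 25.0 above NIPBL (exact permutation p = 0.33, adjusted p = 0.5). MED1 was 3.50 peaks below SMC1A on average, with overlapping libraries (exact permutation p = 0.667, adjusted p = 0.667). A comparison of 2 libraries with 2 cannot give a p below 0.33. Among equal numbers of top peaks in every list, the SMC1A minus NIPBL difference was -29.5 and the MED1 minus SMC1A difference 36.0. Without MED1 replicate 2, the MED1 minus NIPBL difference was 12 peaks. MED1 minus SMC1A was 6 peaks without MED1 replicate 1 and 4.5 without SMC1A replicate 2.

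MED1 covered the most DNA on average, with its 2 libraries far apart. Peaks covered 9.14% and 20.3% of the windows in the MED1 libraries, 6.42% and 9.43% in the SMC1A libraries and 5.86% and 4.28% in the NIPBL libraries. The means were 14.7% ± 7.92 for MED1, 7.92% ± 2.13 for SMC1A and 5.07% ± 1.11 for NIPBL (SD, n = 2 each). MED1 exceeded NIPBL by 9.67 percentage points and SMC1A exceeded NIPBL by 2.85 (exact permutation p = 0.33, adjusted p = 0.5 for each). MED1 exceeded SMC1A by 6.81 points, and the lower MED1 library lay below the higher SMC1A library (exact permutation p = 0.667, adjusted p = 0.667). Single libraries decided the size of these differences. Without MED1 replicate 1, MED1 exceeded NIPBL by 15.3 points and SMC1A by 12.4, and without MED1 replicate 2 by 4.07 and 1.21. SMC1A exceeded NIPBL by 4.36 points without SMC1A replicate 1 and by 1.35 without SMC1A replicate 2. Among equal numbers of top peaks the SMC1A minus NIPBL difference in cover was -3.07 points. MED1 peaks wider than 2 kb numbered 2 of 61 and 10 of 80 in the windows, where 1.29% and 2.72% of the whole lists were that wide. SMC1A peaks that wide numbered 0 of 66 and 0 of 82, where the whole lists gave 0.046% and 0.0821%. NIPBL peaks that wide numbered 1 of 52 and 0 of 46, where the whole lists gave 0.252% and 0.0456%.

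**Figure D2:**
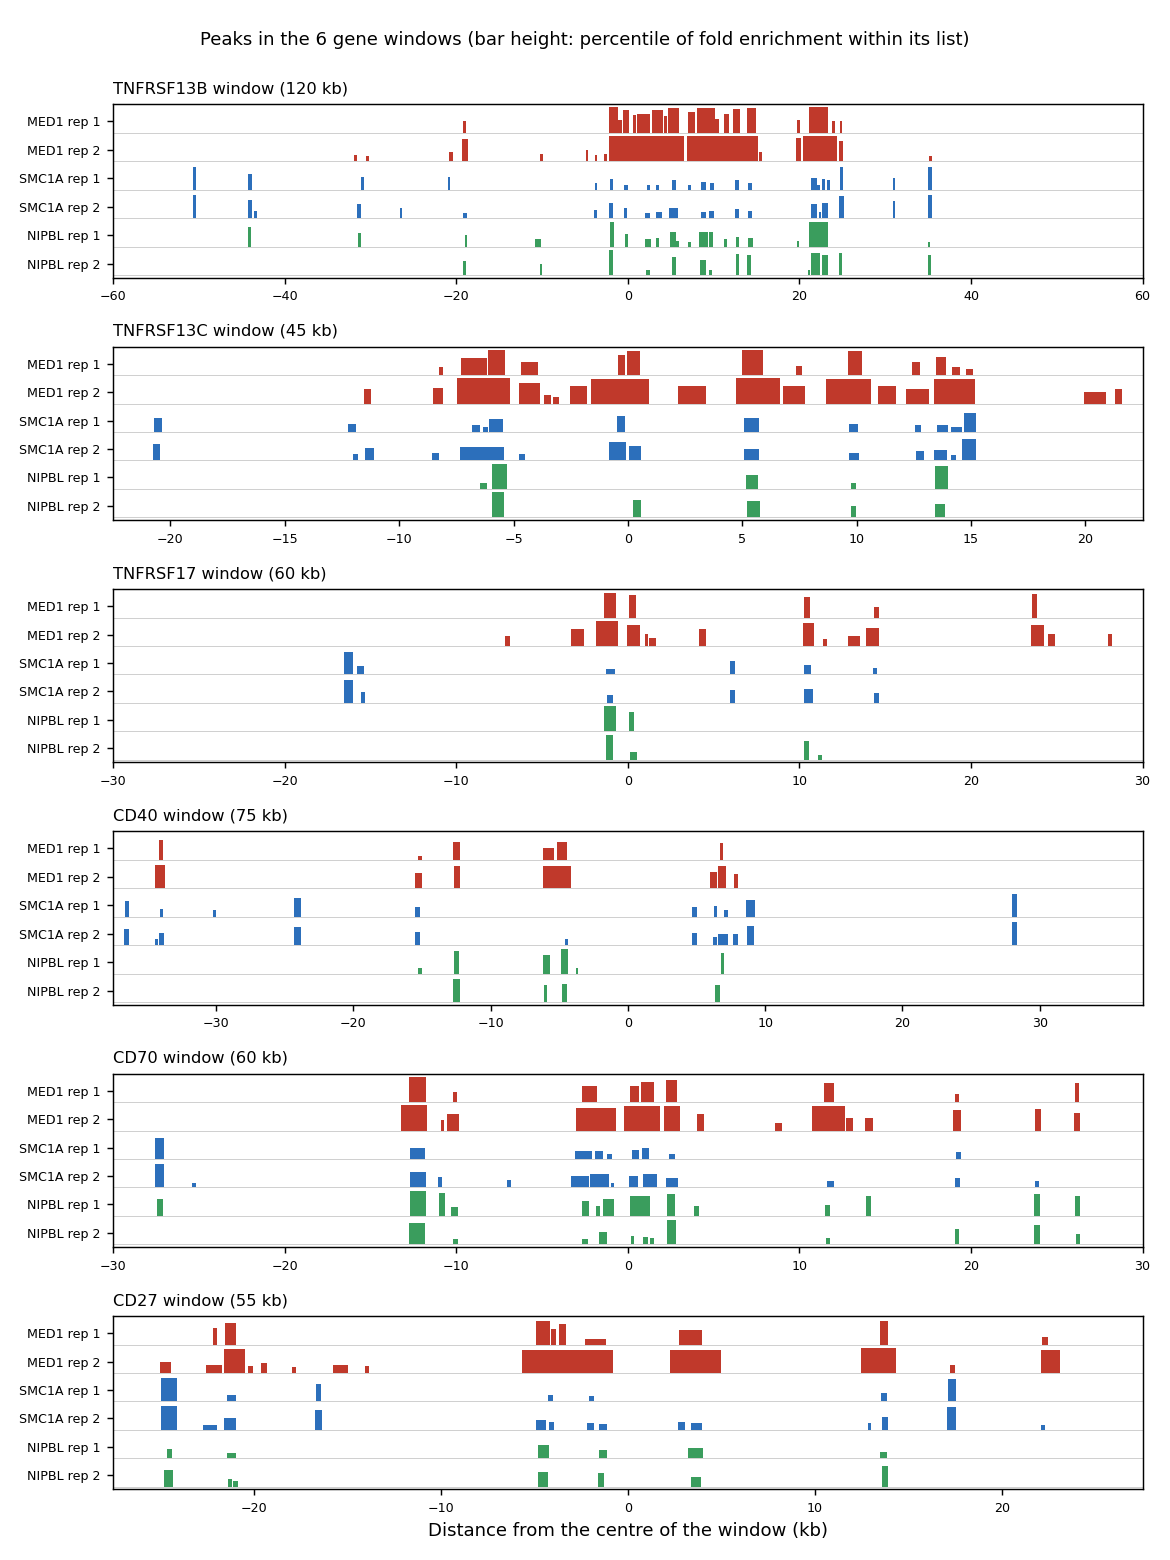
Peaks of the 6 libraries along each window, with distance from the window's centre in kb on the x axis, 1 track per library and bar height showing the percentile of the peak's fold enrichment within its own list. MED1 replicate 2 shows single wide blocks of up to 8775 bp in the TNFRSF13B window where replicate 1 shows several peaks, and tall SMC1A bars stand apart from most MED1 bars.

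Over the 6 windows together, MED1 peaks had a median rank above the middle of their own lists and SMC1A peaks a median rank below it. Fold enrichment is the authors' ratio of a peak's summit to its local background, and its percentile gives a peak's rank within its list. The median percentile was 67.1 and 59.0 for MED1, 24.4 and 28.2 for SMC1A, and 41.6 and 51.6 for NIPBL, where a whole list has 50 by construction. Ranked by −log10 p, medians were 68.6 and 54.6 for MED1, 30.6 and 36.0 for SMC1A, and 46.6 and 53.0 for NIPBL. The windows differed: by fold enrichment, MED1 replicate 2 had medians of 25.5 for TNFRSF13B, 26.5 for CD27 and 48.7 for TNFRSF17. It had 61.1 for TNFRSF13C, 69.8 for CD70 and 83.4 for CD40, and MED1 replicate 1 ran from 56.1 to 86.5. Peaks among the strongest 10% of the list numbered 13 of 61 and 16 of 80 for MED1, or 21.3% and 20%, where the whole lists gave 10%. For SMC1A they numbered 0 of 66 and 1 of 82, where the whole lists gave 9.99% and 10%. For NIPBL they numbered 6 of 52 and 4 of 46, or 11.5% and 8.70%, which is close to the 9.99% and 10% of the whole lists. Neighbouring peaks of a library are not independent, and percentiles of lists of unlike length do not show that a factor bound more.

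Overlapping peaks of the 6 lists were merged into sites, which gave 103 sites in the windows, of a median width of 496 bp. In 16 of the 103, or 15.5%, all 6 libraries had a peak, where 5.7% of the 92867 sites of the series did. The windows held 9 such sites at −log10 q of at least 5 and 0 among equal numbers of top peaks. The share of the series under either setting is not given here, so the contrast with the series holds for the main setting only. All 3 factors had a peak in at least 1 library at 29 sites, or 28.2%, where the series gave 14.1%. SMC1A stood without the others at 19 sites, or 18.4%, where the series gave 48.3%. MED1 stood without the others at 30 sites, or 29.1%, where the series gave 18.8%, and 28 of these 30 had a peak in MED1 replicate 2 alone. Sites of MED1 replicate 2 alone were 16.2% of the series. A single library made 36 sites, or 35.0%, where the series gave 29.7%. Without MED1 replicate 2, 21 sites of 96 had a peak in every library kept, where 6.60% of the series did. Each of the 6 windows held at least 1 site called in all 6 libraries, with 4 each for TNFRSF13C and CD70, 3 each for TNFRSF13B and CD27, and 1 each for TNFRSF17 and CD40. Among chromosome stretches of the same length, 10.9% held such a site at the TNFRSF13B length, 7.84% at the CD40 length, 6.63% at the TNFRSF17 length, 6.63% at the CD70 length, 6.29% at the CD27 length and 5.38% at the TNFRSF13C length. These stretches include DNA without genes, so the shares do not set the windows apart from other gene-bearing stretches.

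A region is a stretch called in both replicates of a factor, and by that stricter unit the windows held 39 MED1, 57 SMC1A and 35 NIPBL regions. A MED1 region met 31 of the 35 NIPBL regions (88.6%, exact 95% interval 73.3 to 96.8), where 70.2% of all NIPBL regions did. An SMC1A region was met by 23 of the 35 (65.7%, 47.8 to 80.9), which is close to the 62.4% of all NIPBL regions. Of the 57 SMC1A regions, 37 overlapped MED1 (64.9%, 51.1 to 77.1) and 25 overlapped NIPBL (43.9%, 30.7 to 57.6), where 17.5% and 14.3% of all SMC1A regions did. Several SMC1A regions can meet the same wide MED1 region. In the TNFRSF13B window 13 SMC1A regions met MED1, while 4 MED1 regions met SMC1A. MED1 regions had a median width of 1005 bp in the windows and 769 bp over the series. How far width raised these shares was not tested. Of the 39 MED1 regions, 23 overlapped NIPBL (59.0%, 42.1 to 74.4) and 24 overlapped SMC1A (61.5%, 44.6 to 76.6), where the series gave 49.3% and 52.2%. SMC1A regions that met neither partner numbered 18 of 57 (31.6%, 19.9 to 45.2), where 79.2% of all SMC1A regions met neither. MED1 regions that met neither partner numbered 7 of 39 (17.9%), where the series gave 33%, and both partners were met by 15 of 39 (38.5%), where the series gave 34.5%. Among SMC1A regions 23 of 57 (40.4%) met both partners, where the series gave 11%. Among NIPBL regions 21 of 35 (60.0%) met both, where the series gave 47.8%, and 2 of 35 (5.71%) met neither, where the series gave 15.2%. The intervals cover counting error only. Without MED1 replicate 1, the share of MED1 regions with NIPBL was 33.75%, and the series share under that setting is not given here.

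The genes differed in the height of their strongest MED1 peak, in nearly the same order in both libraries. In replicate 1 the highest MED1 fold enrichment was 14.6 in the TNFRSF13B window, 11.0 for TNFRSF13C, 9.06 for TNFRSF17, 8.51 for CD70, 6.42 for CD27 and 4.57 for CD40. In replicate 2 it was 30.9 for TNFRSF13B, 25.1 for TNFRSF13C, 15.5 for TNFRSF17, 17.0 for CD70, 12.3 for CD27 and 8.72 for CD40. TNFRSF17 and CD70 changed places between the libraries, and the other genes kept theirs. NIPBL set the genes apart less: its highest fold enrichment was 9.49 and 7.62 for TNFRSF13C, 9.17 and 7.65 for TNFRSF17, 8.94 and 6.86 for CD70, 7.94 and 7.08 for TNFRSF13B, 7.07 and 5.72 for CD40, and 3.63 and 5.09 for CD27. CD27 and CD40 were the lowest 2 for NIPBL in both libraries. The highest SMC1A fold enrichment lay between 18.3 and 25.4 in 5 of the windows, and was 14.9 and 19.4 for TNFRSF13C.

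The TNFRSF13B window, around the gene of TACI, held the broadest MED1 signal. Its libraries gave 19 and 15 peaks for MED1, 22 and 22 for SMC1A, and 19 and 14 for NIPBL, in 22 sites. The leading site, on chromosome 17 from 16867770 to 16876544, was 8775 bp wide because MED1 replicate 2 had a single peak across it, where MED1 replicate 1 had 8 peaks. Its strongest fold enrichments were 14.6 and 30.9 for MED1, 5.27 and 7.61 for SMC1A, and 7.94 and 7.08 for NIPBL. The NIPBL and MED1 summits of the strongest peaks lay 32 and 2 bp apart in the 2 replicates. All 6 libraries had a peak over the same 929 bp of the site.

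A second broad site followed, from 16876908 to 16885185, with MED1 of 8.63 and 17.8, SMC1A of 4.86 and 4.4, and NIPBL of 3.78 and 5.22. The site from 16890411 to 16894379 had the highest fragment pileup of MED1 in the 6 windows, at 156 and 243 fragments, with MED1 fold enrichments of 12.8 and 25.7, SMC1A of 5.59 and 7.28, and NIPBL of 6.49 and 5.57. The strongest SMC1A peaks of the window lay elsewhere. In replicate 2 the strongest, at 23.4, was at a narrow site from 16819294 to 16819676, 48.6 kb from the strongest MED1 summit, where no MED1 or NIPBL library had a peak. In replicate 1 it was at a site from 16904935 to 16905496, where SMC1A had 22.6 and 22.6, NIPBL 2.44 and 4.89, and MED1 a peak of 2.88 in replicate 2 alone. Another strong SMC1A site lay from 16894598 to 16895243, next to the site with the leading pileup of MED1. It had SMC1A of 20.1 and 20.9, with MED1 of 3.43 and 6.74 and NIPBL of 5.33 in replicate 2 alone. Its SMC1A summits were at 16894885, whereas the leading MED1 pileups had summits at 16891600 and 16891587.

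The TNFRSF13C window, around the gene of the BAFF receptor, was the shortest and the densest in MED1. It had 13 and 17 MED1 peaks, 12 and 14 SMC1A peaks and 5 and 5 NIPBL peaks. MED1 peaks covered 15.1% and 41.6% of its 45 kb. The MED1 and NIPBL maxima fell on different sites: MED1 was strongest from 42327236 to 42329151 (11.0 and 25.1), where NIPBL had 3.73 and 4.19. NIPBL was strongest from 42315045 to 42317356 (9.49 and 7.62), where MED1 had 10.3 and 22.1 and SMC1A 6.69 and 6.37. The strongest summits of the 2 factors were 11.2 and 11.1 kb apart. The other sites called in all 6 libraries lay from 42331141 to 42333108, with MED1 of 6.90 and 14.9, and from 42335877 to 42337714. In the last of these SMC1A had its window maximum, 14.9 and 19.4, with NIPBL of 5.72 and 3.81. Its SMC1A summits lay 1233 and 1296 bp from those of the strongest MED1 peaks. A weaker MED1 peak of replicate 1, at 2.82, had its summit at 42337410, beside the SMC1A summit of replicate 1 at 42337439. In the RefSeq table CENPM and SHISA8 are coding neighbours of TNFRSF13C, so a site may belong to another gene. A further site, called in 4 libraries, began 0.086 kb beyond the upper edge of the window.

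The TNFRSF17 window, around the gene of BCMA, had a single site with all 6 libraries, and it was compact. It held 5 and 14 MED1 peaks, 6 and 6 SMC1A peaks and 2 and 4 NIPBL peaks. The site, on chromosome 16 from 12058141 to 12059407, had MED1 of 9.06 and 15.5 and NIPBL of 9.17 and 7.65. SMC1A was weak there, at 3.09 and 3.91, which put it at percentiles 4.35 and 17.0 of its lists, with 21 and 24 fragments at the summit. NIPBL and MED1 summits were 10 and 31 bp apart. The SMC1A maximum of the window, 20.2 and 22.5 with 200 and 210 fragments, lay 15.3 kb away from 12043442 to 12043962, and no MED1 or NIPBL library had a peak there. At -log10 q of at least 5 no site of this window had all 6 libraries.

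The CD40 window had the lowest MED1 maximum of the 6 windows in both libraries. It held 6 and 7 MED1 peaks, 10 and 12 SMC1A peaks and 6 and 4 NIPBL peaks. None of its MED1 peaks was among the strongest 10% of either list, where the whole lists gave 10%. With so few peaks this count does not set the window apart. All 3 NIPBL regions overlapped MED1, where 70.2% of all NIPBL regions did. An SMC1A region met 0 of the 3 (exact 95% interval 0 to 70.8%), an interval that holds the 62.4% of all NIPBL regions. SMC1A stood without the others at 6 of its 13 sites (46.2%), which is close to the 48.3% of the series. By mean percentile NIPBL was highest from 44739782 to 44740277 (fold enrichments of 5.63 and 5.72), with MED1 of 4.19 and 8.08 and no SMC1A peak. A wider site, from 44746292 to 44748384, had NIPBL of 7.07 and 4.47, the first being its maximum in that library. There MED1 had 4.24 and 8.56 and SMC1A had 3.40 in replicate 2 alone. MED1 was strongest from 44718035 to 44718768 (4.57 and 8.72), a site with SMC1A of 4.05 and 5.24 and no NIPBL peak.

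The single CD40 site with peaks of all 6 libraries, from 44758498 to 44759819, was a chain of peaks that shared no base. Its MED1 had 4 and 7.90, its SMC1A 5.10 and 4.85, and its NIPBL 4.82 and 4.28, on pileups of 16 to 25 fragments. At -log10 q of at least 5 it was lost. The SMC1A maximum, 20.6 and 22.6 from 44780493 to 44780880, had no MED1 or NIPBL peak and lay 62.2 and 62.1 kb from the MED1 maximum.

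The CD70 window, around the ligand of CD27, had the most NIPBL peaks for its length. It held 9 and 14 MED1 peaks, 9 and 14 SMC1A peaks and 14 and 12 NIPBL peaks, so that NIPBL reached 23.3 and 20 peaks per 100 kb. Of its 9 NIPBL regions, 8 overlapped MED1 (88.9%, 51.8 to 99.7) and 5 overlapped SMC1A (55.6%, 21.2 to 86.3), intervals that hold the 70.2% and 62.4% of all NIPBL regions. The leading site, on chromosome 19 from 6576784 to 6578318, had MED1 of 8.51 and 17.0, SMC1A of 5.63 and 7.71, and NIPBL of 8.94 and 5.29. Its NIPBL and MED1 summits were 26 and 18 bp apart, whereas the SMC1A and MED1 summits were 479 and 491 bp apart. A run of 3 more sites with all 6 libraries spanned 6586704 to 6593030. In the last of these, from 6592135 to 6593030, NIPBL had 5.40 and 6.86 and MED1 5.33 and 11.3, while SMC1A had 2.85 and 4.37. At -log10 q of at least 5, 2 sites of this window had all 6 libraries, against 4 in the main setting.

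The SMC1A maximum of the CD70 window, 18.3 and 23.4, lay from 6562453 to 6562974 with no MED1 peak and a NIPBL peak in replicate 1 alone. The windows were also set beside their flanks: 25 kb on each side of the CD70 window held 44 further peaks, against 2 to 14 around each of the other genes. Widening this window raised its sites with all 6 libraries to 8, against 4 in the window itself. The nearest site beyond its edges lay 3.03 kb out on the lower side and was called in 5 libraries. In the RefSeq table the coding neighbours of CD70 are TNFSF9 and TNFSF14, ligands of the same family.

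The CD27 window had the lowest NIPBL maximum of the 6 windows in both libraries. It held 9 and 13 MED1 peaks, 7 and 14 SMC1A peaks and 6 and 7 NIPBL peaks. No NIPBL peak was among the strongest 10% of its list, where the whole lists gave 9.99% and 10%. With so few peaks this count does not set the window apart. The broadest site, on chromosome 12 from 6551859 to 6556697, had MED1 of 6.42 and 8.72, SMC1A of 3.61 and 4.52, and NIPBL of 3.63 and 3.99. No base of it lay in peaks of all 6 libraries, and a single MED1 peak of replicate 2 spanned 4 of replicate 1. A tighter site, from 6569951 to 6571832, had MED1 of 6.25 and 12.3, SMC1A of 4.22 and 5.68, and NIPBL of 2.83 and 5.09, with NIPBL and MED1 summits 9 and 7 bp apart. A site from 6535921 to 6537038 had MED1 of 4.99 and 11.2 and NIPBL of 2.65 and 3.26. NIPBL replicate 1 was at percentile 8.63 of its list at the tighter site and at 4.64 at the latter. At -log10 q of at least 5, 1 site of this window had all 6 libraries, against 3 in the main setting. SMC1A was highest from 6532489 to 6533422 (21.9 and 25.4), where NIPBL had 3.21 and 4.35 and MED1 a peak of 4.11 in replicate 2 alone. CD27-AS1 and TAPBPL flank CD27 in the RefSeq table.

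At the 16 sites with all 6 libraries, MED1 held high ranks and SMC1A low ones. The lowest, median and highest percentile were 55.0, 91.6 and 99.3 for MED1 replicate 1 and 83.4, 97.3 and 99.7 for replicate 2. They were 2.16, 27.1 and 71.3 for SMC1A replicate 1 and 16.6, 38.1 and 81.4 for replicate 2. NIPBL spread across its lists, at 4.64, 73.6 and 98.9 in replicate 1 and 16.5, 67.5 and 96.4 in replicate 2. Both MED1 libraries ranked above both SMC1A libraries at 15 of the 16 sites, and the exception was the TNFRSF13C site at the SMC1A maximum of that window. The whole lists had the same order, with median percentiles of 58.4 and 65.0 for MED1 peaks that met SMC1A and 21.5 and 25.9 for SMC1A peaks that met MED1. Both NIPBL libraries ranked above both SMC1A libraries at 10 of the 16. Of the 16 sites, 12 were wider than 1500 bp, and in 2 no base was shared by all libraries.

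**Figure D3:**
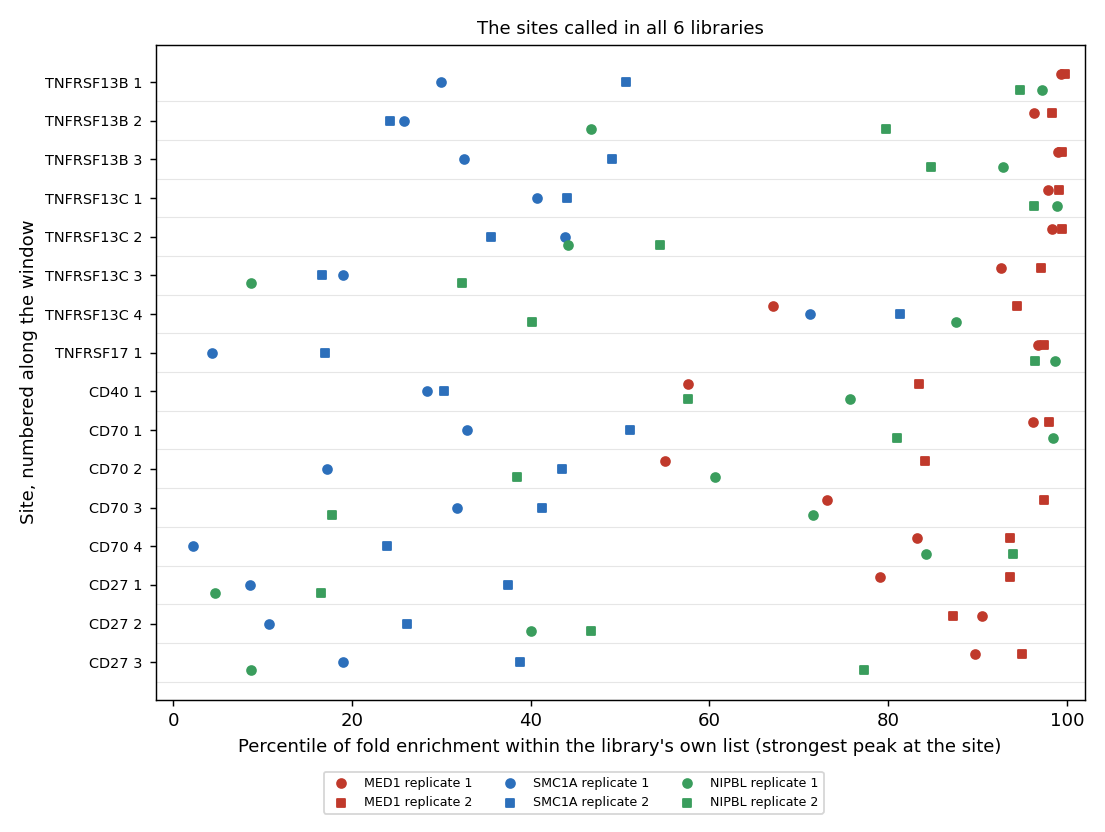
Percentile of fold enrichment within each library's own list (x axis) for the strongest peak at each of the 16 sites called in all 6 libraries (y axis, numbered along each window), circles for replicate 1 and squares for replicate 2. MED1 points lie at 55.0 or above, and SMC1A points lie at 51.1 or below except at the fourth TNFRSF13C site.

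At most of the 16 sites with all 6 libraries, the summits of the strongest NIPBL and MED1 peaks lay close together. The sites were selected for overlapping peaks, which favours short distances, and distances over the series are not given here. Between the strongest peaks of a site, the NIPBL to MED1 distance had a median of 39.5 and 35.5 bp in replicates 1 and 2, and 11 of 16 sites were within 100 bp in each. The SMC1A to MED1 distance had medians of 70.0 and 140.5 bp, with 10 and 8 of 16 within 100 bp. The NIPBL to SMC1A distance had medians of 111.5 and 126.5 bp, with 8 and 7 of 16 within 100 bp. The largest distance, 5394 bp between NIPBL and MED1 in replicate 1, was at the TNFRSF13B site from 16876908 to 16885185. Only the strongest peaks were paired: a weaker NIPBL peak of replicate 1 there had its summit at 16884338, beside the MED1 summit at 16884213. The broadest TNFRSF13B site had distances of 0 to 32 bp, and the broad CD27 site reached 2882 bp between NIPBL and MED1 in replicate 2. The differences between these distances were not tested.

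SMC1A without partners had a higher median fold enrichment than SMC1A at the 16 sites with all 6 libraries. The 13 sites called in both SMC1A libraries and in no other had a median of 9.14 and 10.1, with a lowest of 4.34 and 3.43 and a highest of 22.4 and 23.4. The 16 sites with all 6 libraries had a median of 4.98 and 5.60, with a lowest of 2.85 and 3.89 and a highest of 14.9 and 19.4. Sites that SMC1A shared with only some of the other libraries are in neither group. They held the highest SMC1A values of the windows, 22.6 in replicate 1 (TNFRSF13B) and 25.4 in replicate 2 (CD27), each at a site called in 5 libraries. SMC1A peaks with MED1 had median widths of 385 and 443 bp in the windows, against 367 and 345.5 bp for those without it. The ranges overlapped in both libraries, and the difference was not tested, since sites of a library are not replicates. Single SMC1A peaks in the windows had median fold enrichments of 8.95 and 8.88 without MED1 and 4.05 and 4.48 with it. The whole lists showed the same order, with medians of 11.0 and 10.8 without MED1 and 4.45 and 4.52 with it. Split by NIPBL, the window medians were 6.32 and 4.72 without it and 4.22 and 4.66 with it, nearly equal in replicate 2. Over the whole lists they were 10.0 and 9.09 without NIPBL and 4.54 and 4.76 with it.

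**Figure D4:**
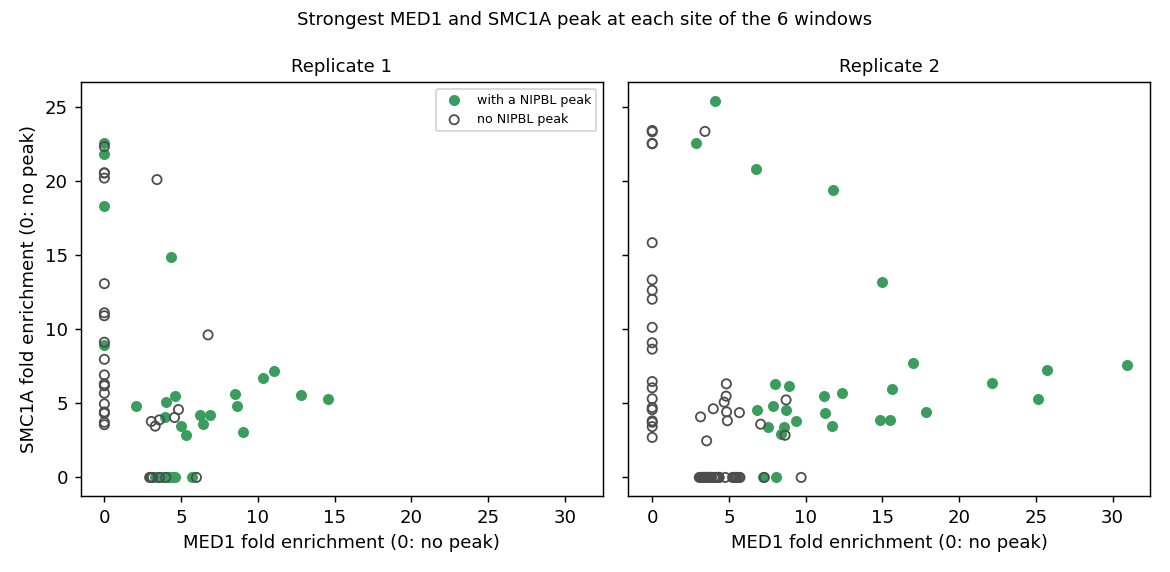
Fold enrichment of the strongest SMC1A peak (y axis) against that of the strongest MED1 peak (x axis) at each site of the 6 windows, in a panel per replicate, with 0 for no peak. Filled points have a NIPBL peak in that replicate. SMC1A values up to 22.6 in replicate 1 stand at 0 for MED1, and the MED1 maxima of 14.6 and 30.9 have SMC1A of 5.27 and 7.61.

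The 2 MED1 libraries differed in scale at nearly every region of the windows. Fold enrichment was higher in replicate 2 at 38 of 39 MED1 regions, where 98.5% of all MED1 regions were, and the median ratio was 2.01 in the windows and 1.96 over the series. SMC1A was higher in replicate 2 at 43 of 57 regions, where 74.5% of the series were, with a median ratio of 1.14. NIPBL was higher in replicate 2 at 17 of 35, where 45.7% of the series were, with a median ratio of 0.952. All 61 MED1 peaks of replicate 1 overlapped a peak of replicate 2, whereas 39 of the 80 peaks of replicate 2 overlapped replicate 1. The same shares over the whole lists, which held 15007 MED1 regions, are not given here. These counts therefore do not set the windows apart from the series. On chromosomes 1 to 22 and X the lists held 18131 and 45046 MED1 peaks, 56510 and 68228 SMC1A peaks and 21422 and 15357 NIPBL peaks. Relative depth recovered from the peak values, on the assumption that the ChIP libraries were not scaled, was 1.00 and 0.755 for MED1, 0.752 and 0.743 for SMC1A, and 0.965 and 0.820 for NIPBL. The lowest pileup of a called peak was 7 to 11 fragments, so weaker binding was not detectable.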

How the data were processed

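Per the labels, ChIP-seq peaks of GM12878 cells were called for each MED1, SMC1A and NIPBL library alone against pooled whole cell extract. Trimmomatic 0.33, BWA 0.7.12, MACS2 2.1.0 and hg19 are named, per the submitters' processing notes, and their settings are not stated. The authors' fold enrichment is a linear ratio at each summit, and p- and q-values were deposited as −log10. The smallest deposited −log10 q was 1.30. The deposited score was not used, and the deposited summit offset gave summit positions in other units (bp).

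Peaks on chromosomes 1 to 22 and X were kept and ranked within each list. A peak was a member where it overlapped a window by at least 1 bp. Peaks of all lists were merged into sites, and peaks of both replicates into regions. Pileup and control were solved from fold and p within 1%, for 100% of peaks, assuming Poisson p-values, a pseudocount of 1 and ChIP libraries that were not scaled; every pileup and relative depth given rests on this. Read totals were not used, so depth is relative. Library values were compared by exact two-sided permutation tests with Benjamini-Hochberg adjustment over 6 comparisons. Shares have exact Clopper-Pearson 95% intervals. The merging, overlap and pileup steps were tested on simulated data. Python 3.11.15, pandas 2.3.3 and SciPy 1.17.1 were used.

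Named sites were the sites with all 6 libraries, at most 4 per window by mean percentile, and, where a window had fewer than 2, the leading site of each factor; other sites named were chosen after their values were seen. The windows, gene lists and tests were chosen with earlier results of these data known. No hg19 annotation was used, so sites are not assigned to exons or gene starts, and planned counts over other TNF family genes and cell type markers were not made. The labelled cell type was therefore not checked against markers.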

Additional observations from a re-analysis of the deposited data

How the results depend on the processing

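The 3 comparisons of peak number and 3 of covered share missed the threshold under every alternative, which 2 libraries a factor impose. With the replicate block the differences stayed as given, 21.5, 25.0 and -3.50 peaks and 9.67, 2.85 and 6.81 points, each with an exact permutation p of 0.5, the smallest possible. Whether replicate numbers pair the libraries was not settled, since the labels do not give the cultures and each factor has a single replicate difference. Deviations per 1 Mb, over 2834 bins, correlated at -0.20 for MED1 with NIPBL, -0.06 for SMC1A with NIPBL and 0.16 for MED1 with SMC1A. Among equal numbers of top peaks (15357 a list), where SMC1A loses most peaks by construction, the SMC1A minus NIPBL differences turned to -29.5 peaks and -3.07 points, and the MED1 minus SMC1A difference to 36.0 peaks. There 0% of NIPBL regions met SMC1A, 0% of SMC1A regions met NIPBL, and 0 sites had all 6 libraries, against 16. At −log10 q of at least 5, 9 sites had all 6 libraries and 26.5% of SMC1A regions met NIPBL. Shares over the series under these alternatives are not given in this section. With 1 library left out, MED1 minus SMC1A ran from -13.0 to 6 peaks, with 6 without MED1 replicate 1 and 4.50 without SMC1A replicate 2. The share of NIPBL regions with MED1 ran from 78.8% to 100%, that of NIPBL regions with SMC1A from 61.5% to 82.9% (the higher value without SMC1A replicate 1), and that of MED1 regions with NIPBL from 33.75% (without MED1 replicate 1) to 71.8%. Sites with a peak in every library kept numbered 16 to 21, an alternative chosen after seeing the data. Summits in place of overlap left the 6 differences as given. Widening the windows by 25 kb, regions of either replicate and an overlap of 50% of the smaller region turned no direction of those tried: widening gave 6.30 and 4.16 points for MED1 over NIPBL and over SMC1A and -2 peaks for MED1 minus SMC1A, and either-replicate regions gave 78.9% of NIPBL with SMC1A and 47.5% of MED1 with NIPBL. With 1 library left out, MED1 minus NIPBL ran from 12 to 31 peaks and 4.07 to 15.3 points, SMC1A minus NIPBL from 17 to 33 peaks and 1.35 to 4.36 points, and MED1 minus SMC1A from 1.21 to 12.4 points. Causes were not tested.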
